A study of Homo sapiens with 30 samples.

Results

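Palmul-tang is an East Asian herbal formula, and its ethanol extract at 500 µg/mL, the high dose, was compared with the same extract at 100 µg/mL, the medium dose, in HepG2, a cell line from a human hepatocellular carcinoma. The comparison used 6 of the 30 libraries of the series, 3 at each dose, taken by the formula and dose that their labels and column names give. It covered all 16084 genes that passed a filter on low counts. All 6 cultures were treated for 24 h with an extract made in 70% ethanol. The vehicle samples are labelled 0.1% DMSO (the series' design text gives 2%), and the labels of the extract samples give no DMSO level. The series measured RNA in HepG2 cells after extracts of 4 related tonifying formulas at graded doses, with a DMSO vehicle group. The other groups named here are Palmul-tang at 20 µg/mL, the low dose, and Sibjeondaebo-tang at 500 and 100 µg/mL, each with 3 libraries. By tradition the recipe of Palmul-tang unites those of Sagunja-tang and Samul-tang, while Sibjeondaebo-tang is Palmul-tang with Astragalus and cinnamon.

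Plant extracts hold many small aromatic and reactive compounds, which liver cells handle with inducible genes. The aryl hydrocarbon receptor (AHR) is a ligand-activated transcription factor that turns on CYP1A1 and a few other genes, and NRF2 is a factor freed from its inhibitor KEAP1 by electrophiles, which turns on genes of glutathione synthesis, quinone reduction and efflux. Hepatocytes also make most of the body's plasma proteins, cholesterol and bile acids, through SREBP2, HNF4A, CEBPA and other factors.

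The 6 libraries held 21570416 to 32714295 expected counts, that is, estimated reads per gene. Levels are given as CPM, counts scaled to a common library total, and differences as log2 fold changes of high over medium dose, with their standard error. HepG2 is 1 tumour line, and the labels do not say that the replicates were separate cultures, so the p-values reflect only how far these samples vary, and that variation may be technical. In bulk RNA, fewer cells of a type and less RNA per cell cannot be told apart. All 8 hepatocyte markers (ALB, APOA1, TTR, AFP, SERPINA1, HNF4A, FGB and TF) were detected at both doses, while among blood markers PTPRC, CD3E and HBB were at 0 in all 6 libraries, as were the fibroblast markers DCN, POSTN and THY1 and the markers KDR, KRT5, SFTPC and NKX2-1 of other cell types. The summed hepatocyte markers were 40170 to 42773 CPM at the high dose and 44502 to 45600 CPM at the medium dose. The 8 fibroblast markers summed to 3.97 to 5.10 CPM at the high dose and 5.21 to 5.99 CPM at the medium dose, and the 4 endothelial markers to 2.31 to 2.68 CPM at the high dose and 2.69 to 2.90 CPM at the medium dose. The sum of the 4 blood markers, which was CD68 alone, overlapped at 68.9 to 80.5 CPM at the high dose and 61.9 to 73.8 CPM at the medium dose. The hepatocyte, fibroblast and endothelial sums did not overlap between the doses, and their part in the results was not tested. Mitochondrially encoded transcripts took 15.6% ± 1.19 of counts in the high-dose and 15.6% ± 1.13 in the medium-dose libraries (SD, n = 3 each; exact permutation test, two-sided, p = 1, where 0.1 is the smallest p possible).

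Few genes were called (adjusted p under 0.05) for the step from 100 to 500 µg/mL, and most of those differed little. In total 364 of 16084 genes (2.26%) had an adjusted p under 0.05 in edgeR's quasi-likelihood test with Benjamini-Hochberg adjustment, and 1889 (11.7%) had an unadjusted p under 0.05. Of these, 187 (1.16% of genes tested) were higher and 177 (1.1%) lower at the high dose. The median absolute log2 fold change of the called genes was 0.30, and 295 of them changed by less than 0.5 on the log2 scale. Only 16 passed 1 on that scale, 12 higher and 4 lower. In 363 of the 364 the 3 high-dose libraries did not overlap the 3 medium-dose ones in CPM, with MTHFD2 as the exception, beside 17.2% of all genes tested that did not overlap. The median log2 fold change of all genes was -0.00, with quartiles at -0.09 and 0.08. The count of calls was 225 without high replicate 2 and 216 without medium replicate 2.

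**Figure D1:**
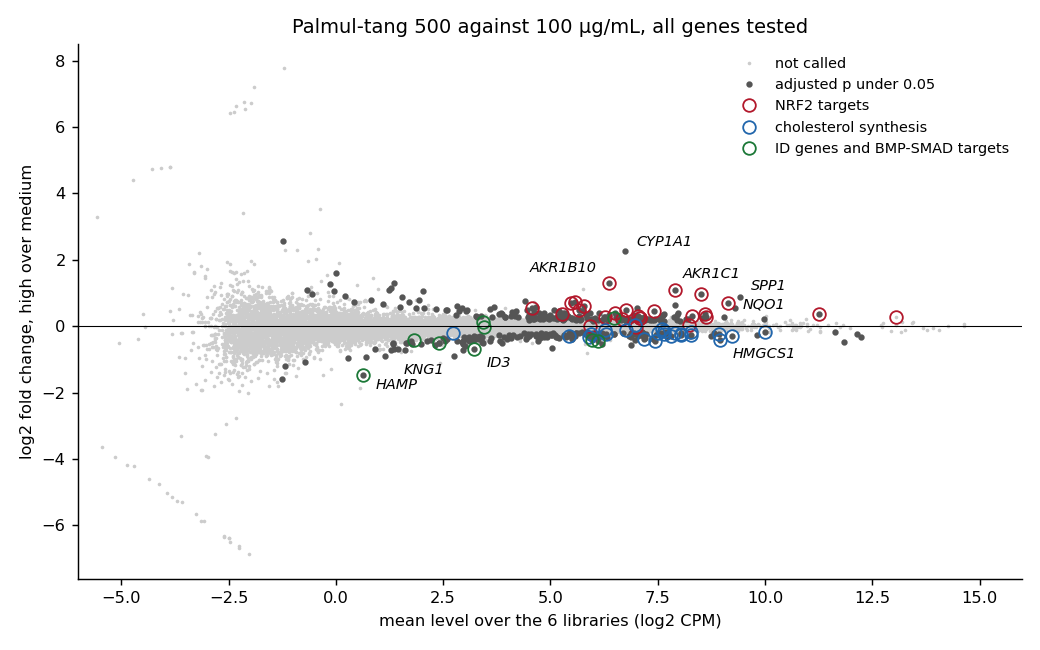
Log2 fold change of Palmul-tang high over medium dose (vertical axis) against mean log2 CPM of the 6 libraries (horizontal axis) for the 16084 genes tested, with the 364 called genes as dark points and circles around NRF2 targets, cholesterol synthesis genes and the ID and BMP list. Of the called genes 295 lie within 0.5 of zero, CYP1A1 stands at 2.26, and the widest scatter on the left is of scarce genes that were not called.

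Genes known as AHR targets had the highest median log2 fold change of the 40 gene lists, 0.81. Of 8 tested members 4 rose and none fell, beside 1.16% of all genes called higher. CYP1A1, a cytochrome P450 that oxidises polycyclic aromatic compounds (ENSG00000140465, chr15:74719542-74725610), had 185, 180 and 170 CPM in the high-dose libraries, against 37.8, 35.9 and 37.4 CPM in the medium-dose libraries. Every high-dose library was more than 4 times every medium-dose library, and the log2 fold change was 2.26 ± 0.0768 (adjusted p = 7.89e-18). CYP1A2, its neighbour and a caffeine-metabolising P450, was close to the detection limit, with 0.693, 0.688 and 0.830 CPM at the high dose and 0, 0.0682 and 0.285 CPM at the medium dose, and rose with a log2 fold change of 2.57 ± 0.512 (adjusted p = 0.00272). Its fold change depends on these few counts, at 2.04 without medium replicate 1 and 4.20 without medium replicate 3. ALDH3A1, an aldehyde dehydrogenase, had 5.70, 5.65 and 5.30 CPM at the high dose and 3.27, 2.28 and 2.42 CPM at the medium dose, a log2 fold change of 1.07 ± 0.140 (adjusted p = 7.35e-06). The fourth called member was NQO1, which is also an NRF2 target. AHRR, the receptor's repressor, had a log2 fold change of 0.81 (adjusted p = 0.161), TIPARP, another feedback gene, -0.05 (0.84), CYP1B1 0.66 (0.722) and UGT1A6 0.81 (0.399), and none of them passed. LRAT, the remaining member, did not pass the filter on low counts.

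NRF2 target genes were the group with the most calls, with a median log2 fold change of 0.37. Beside 1.16% of all genes called higher, 22 of 26 tested members were higher and none lower. Leaving out each library in turn left 18 to 20 of them called. AKR1B10, an aldo-keto reductase that reduces reactive aldehydes (ENSG00000198074, chr7:134527592-134541408), had 121, 108 and 126 CPM at the high dose and 51.3, 47.4 and 44.2 CPM at the medium dose (1.31 ± 0.0592, adjusted p = 1.61e-16). AKR1C1, with 481 ± 47.6 CPM at the high dose, against 244 ± 26.1 CPM at the medium dose (SD, n = 3 each), rose by 0.98 ± 0.0672 (adjusted p = 5.35e-11), and AKR1C2, with 326 ± 29.4 CPM at the high dose and 154 ± 15.9 CPM at the medium dose, by 1.08 ± 0.0640 (adjusted p = 5.23e-13). Both are steroid reductases whose transcripts are so alike that the division of reads between them is uncertain. NQO1, which reduces quinones (ENSG00000181019, chr16:69706996-69726951), had 726, 664 and 702 CPM in the high-dose libraries, against 452, 436 and 397 CPM in the medium-dose libraries, a log2 fold change of 0.70 ± 0.0525 (adjusted p = 7.65e-11). In all 4 of these genes the lowest high-dose library lay well above the highest medium-dose library.

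The glutathione and thioredoxin branches of the NRF2 list rose as well. GCLM and GCLC, the modifier and catalytic subunits of the enzyme that starts glutathione synthesis, had log2 fold changes of 0.71 ± 0.0664 (adjusted p = 1.57e-08) and 0.39 ± 0.0399 (adjusted p = 9.35e-08). GCLM was at 57.5, 54.3 and 54.1 CPM at the high dose and 32.7, 34.3 and 34.5 CPM at the medium dose. SLC7A11, the cystine importer that feeds this pathway, had 63.6, 58.3 and 57.3 CPM at the high dose, against 36.2, 37.5 and 34.5 CPM at the medium dose (0.73 ± 0.0961, adjusted p = 5.46e-05). The importer and the subunits of the enzyme it feeds all had more transcript at the high dose, with no overlap between the doses. SRXN1, which repairs oxidised peroxiredoxins, rose by 0.48 ± 0.0413 (adjusted p = 2.15e-09), TXNRD1, thioredoxin reductase, by 0.45 (2.84e-06), and OSGIN1, an oxidative stress-induced growth inhibitor, by 0.61 ± 0.0571 (1.64e-08). FTH1, the ferritin heavy chain that stores iron, had 2688, 3059 and 2543 CPM at the high dose and 2173, 2168 and 2149 CPM at the medium dose (0.35 ± 0.0635, adjusted p = 0.000899), while FTL, the light chain, did not pass at 0.26 (0.304). HMOX1, haem oxygenase, rose little, with 89.8, 83.8 and 78.5 CPM at the high dose and 71.0, 70.2 and 68.4 CPM at the medium dose (0.27 ± 0.0599, adjusted p = 0.0085), and without high replicate 1 its adjusted p was 0.0977. In the pentose phosphate pathway, which supplies NADPH, the transketolase TKT (0.27) and the transaldolase TALDO1 (0.22) passed, whereas PGD (0.04), an NADPH-making dehydrogenase, did not. The aldose reductase AKR1B1 also did not pass (0.01), and ME1 did not pass the filter on low counts.

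**Figure D2:**
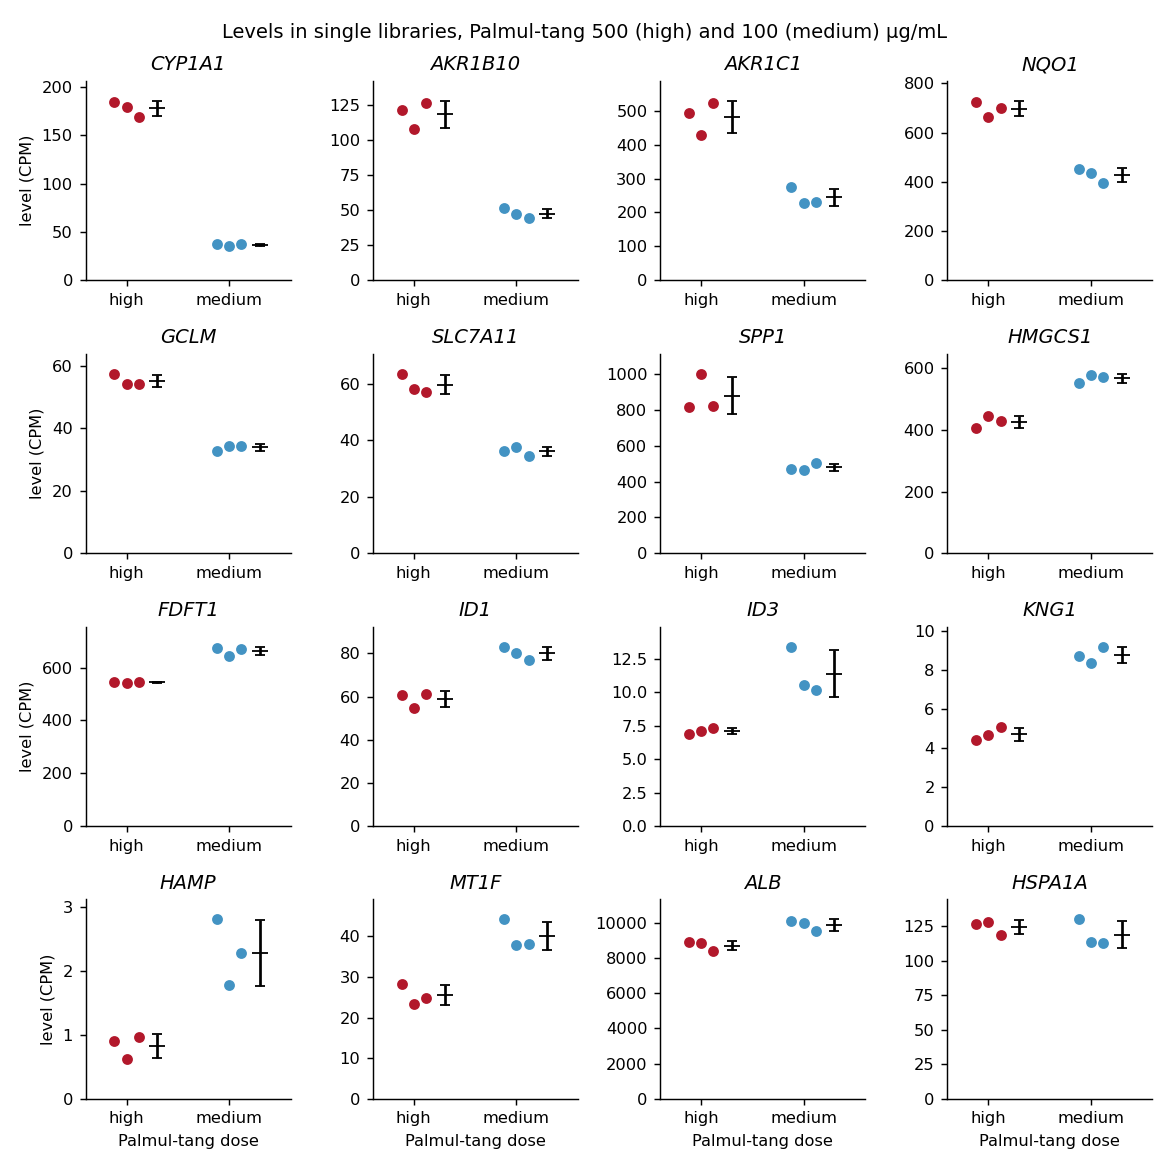
CPM of named genes in each Palmul-tang library (vertical axes), high dose left of medium dose, with points for the 3 libraries of each dose and bars for their mean and SD beside them. The genes higher at the high dose (such as CYP1A1, at 185, 180 and 170 CPM) and those lower (such as HMGCS1, at 404, 443 and 429 CPM) show no overlap between the doses, and HSPA1A does.

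The promoter letters of 3 of the induced genes are shown, CYP1A1 and GCLM as members of the AHR and NRF2 lists, whose calls were all higher, and ASNS as a gene called outside them. Each of these genes holds the motif searched for its list. Among the named genes with a promoter in the RefSeq table, GCLM and ASNS are the only ones of their lists with a match. The letters are the 250 bases before the gene start of the RefSeq table on GRCh38.p14, on the coding strand, with the searched motif in capitals. For CYP1A1 and ASNS that start lies inside the GENCODE gene, so the windows overlap its first bases. CYP1A1 (chr15:74725529-74725778, minus strand) holds GCGTG, the core of the AHR response element, with its first base at position -57. GCLM (chr1:93909431-93909680, minus strand) holds the antioxidant response element core TGACNNNGC on the opposite strand, starting at -34. ASNS (chr7:97872409-97872658, minus strand) holds TGATGNAA, the amino acid response element, at -68.
CYP1A1: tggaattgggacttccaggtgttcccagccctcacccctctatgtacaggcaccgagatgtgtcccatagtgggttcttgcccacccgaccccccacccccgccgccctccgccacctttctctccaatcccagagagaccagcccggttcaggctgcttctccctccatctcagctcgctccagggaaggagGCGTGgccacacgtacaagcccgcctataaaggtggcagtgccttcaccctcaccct
GCLM: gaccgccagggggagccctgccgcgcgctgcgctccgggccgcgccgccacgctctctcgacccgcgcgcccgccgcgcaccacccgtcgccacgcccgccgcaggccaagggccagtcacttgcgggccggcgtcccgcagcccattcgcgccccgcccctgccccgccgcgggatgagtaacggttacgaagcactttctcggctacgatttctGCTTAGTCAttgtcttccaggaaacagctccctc
ASNS: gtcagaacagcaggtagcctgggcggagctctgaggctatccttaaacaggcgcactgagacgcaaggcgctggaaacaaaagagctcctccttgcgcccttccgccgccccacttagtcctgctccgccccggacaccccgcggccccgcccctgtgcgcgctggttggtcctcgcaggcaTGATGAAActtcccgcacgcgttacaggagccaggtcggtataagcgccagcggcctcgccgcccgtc
Searched on both strands of 35116 promoters of 300 bases, GCGTG was found in 36.5%, TGACNNNGC in 13.3%, TGATGNAA in 3.62% and TCACNCCAC, a sterol response element, in 1.13%. Among the named genes with a promoter in the table, 2 of 3 AHR targets held the first, 1 of 7 NRF2 targets the second, 1 of 4 integrated stress response genes the third and 0 of 2 cholesterol genes the last. A match is a run of letters in this window only, and not evidence of binding.

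Several efflux pumps rose, while most other drug-handling genes did not pass. Of 9 tested efflux and uptake transporters 3 were higher and none lower (median 0.26), beside 1.16% of all genes called higher. ABCC2 and ABCC3 among them are counted in the NRF2 list as well. ABCC2, the canalicular pump that exports conjugates into bile, had 434, 420 and 449 CPM at the high dose and 339, 336 and 337 CPM at the medium dose (0.36 ± 0.0416, adjusted p = 5.96e-07). ABCC3, its counterpart on the blood side, had 61.4, 58.6 and 59.3 CPM at the high dose, against 40.3, 40.6 and 45.8 CPM at the medium dose (0.50 ± 0.0515, adjusted p = 8.98e-08), and ABCB1, P-glycoprotein, had 125, 120 and 127 CPM at the high dose and 109, 106 and 106 CPM at the medium dose (0.21 ± 0.0448, adjusted p = 0.00501). The export pumps ABCG2 (0.26), ABCC4 (0.26) and ABCC1 (0.21) had like fold changes and did not pass. Among 9 conjugating enzymes, UGT1A1, which glucuronidates bilirubin, rose by 0.58 ± 0.0791 (adjusted p = 1.45e-05), with 30.2, 31.4 and 29.6 CPM at the high dose, against 20.5, 18.2 and 22.1 CPM at the medium dose, although the shared exons of the UGT1A locus make its count uncertain. UGT2B4, a bile acid glucuronosyltransferase, fell by 0.26 on the log2 scale (adjusted p = 0.00499), and SULT2A1, a steroid sulfotransferase, by 0.24 (0.00598), with an adjusted p of 0.0624 without high replicate 2 and 0.057 without medium replicate 2. None of the 7 tested CYP2 and CYP3A genes and their receptors passed edgeR's test, none had an unadjusted p under 0.05, and DESeq2 called none, with CYP3A4 at no more than 0.344 CPM in any of the 6 libraries.

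Other genes with large increases came from several functions. SPP1, the secreted phosphoprotein osteopontin, had 818, 1003 and 821 CPM at the high dose and 470, 467 and 503 CPM at the medium dose (0.88 ± 0.0910, adjusted p = 2.76e-06). PTGR1, a reductase of prostaglandins and leukotrienes, had 27.1, 24.2 and 28.2 CPM at the high dose and 15.8, 15.0 and 16.5 CPM at the medium dose (0.75 ± 0.0807, adjusted p = 2.12e-07). CPLX2, a complexin that acts in vesicle fusion in neurons, had 300, 289 and 293 CPM at the high dose, against 174, 186 and 204 CPM at the medium dose (0.64 ± 0.0495, adjusted p = 1.4e-10). All high-dose libraries of these genes lay above all medium-dose libraries, which was a condition for naming genes by their fold change. GDF15, a stress cytokine and p53 target, had 230, 224 and 226 CPM at the high dose and 185, 177 and 162 CPM at the medium dose (0.38 ± 0.0558, adjusted p = 6.27e-05), but the other 17 tested p53 targets did not pass, with CDKN1A, the cell cycle inhibitor, at 0.14 (0.213). SQSTM1, the autophagy receptor p62, rose by 0.34 ± 0.0411 (adjusted p = 1.48e-06) as the only 1 of 21 autophagy and lysosome genes. Without medium replicate 1 there were 2 calls in that list. Over all genes 1.16% were called higher, so nothing about the p53 or the autophagy and lysosome list is read from its 1 call. ALDH1L1, a cytosolic folate dehydrogenase, had 29.1, 26.0 and 30.0 CPM at the high dose, against 21.4, 21.3 and 20.6 CPM at the medium dose (0.42, adjusted p = 6.27e-05).

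Some genes of the amino acid branch of the stress response were called, all of them higher. Beside 1.16% of all genes called higher, 2 of 21 tested integrated stress response genes rose and none fell (median 0.07). These were ASNS, asparagine synthetase, with 62.8, 60.8 and 63.5 CPM at the high dose and 45.9, 46.3 and 44.4 CPM at the medium dose (0.45 ± 0.0501, adjusted p = 3.25e-07), and SLC7A11, which the NRF2 list also holds. The pathway's transcription factors did not pass, with ATF4 at 0.09, DDIT3 (CHOP) at -0.10 (0.778) and its target TRIB3 at -0.05. Of 20 aminoacyl-tRNA synthetases, which load tRNAs with amino acids, 16 had an unadjusted p under 0.05 in edgeR, all higher. Over all genes that share was 11.7% in either direction. The list had a median of 0.13, and 5 of its members were called higher (CARS1, GARS1, NARS1, VARS1 and WARS1). This count was 2 or 3 when any 1 of the 6 libraries was left out, and WARS1 was called in all of the alternatives run, with 113, 114 and 124 CPM at the high dose and 102, 95.8 and 102 CPM at the medium dose (0.23 ± 0.0453, adjusted p = 0.00249). No heat shock gene of 18 passed edgeR's test, none had an unadjusted p under 0.05 and DESeq2 called none, with HSPA1A at 127, 128 and 118 CPM at the high dose, against 130, 114 and 113 CPM at the medium dose (0.07 ± 0.0558, adjusted p = 0.736).

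Cholesterol synthesis was the list with the most genes that fell. Of 24 tested members 16 were lower and none higher, with a median log2 fold change of -0.23, beside 1.1% of all genes called lower. Leaving out each library in turn left 12 to 16 called. HMGCS1, which makes HMG-CoA (ENSG00000112972, chr5:43289395-43313512), had 404, 443 and 429 CPM at the high dose and 551, 579 and 572 CPM at the medium dose, with a log2 fold change of -0.41 ± 0.0453 (adjusted p = 2.69e-07). FDFT1, squalene synthase, had 547, 541 and 545 CPM at the high dose and 675, 644 and 671 CPM at the medium dose (-0.29, adjusted p = 0.000547). FDPS, which makes farnesyl diphosphate, had 210, 189 and 206 CPM at the high dose, against 263, 246 and 231 CPM at the medium dose (-0.29, adjusted p = 0.00065). In each of these the doses did not overlap. Elsewhere in the pathway, MVD (-0.39), TM7SF2 (-0.31), SQLE (-0.23), LSS (-0.23) and CYP51A1 (-0.23) also fell. SREBF2, which encodes SREBP2, did not pass (-0.08). PMVK, MSMO1, NSDHL, EBP, SC5D and DHCR7 had values of -0.21 to -0.11 and did not pass, and INSIG1 did not pass the filter on low counts.

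Fatty acid and bile acid genes fell in part. Of 19 tested fatty acid and triglyceride synthesis genes 6 were lower and none higher (median -0.12), beside 1.1% of all genes called lower. The desaturase FADS2 had 279, 273 and 271 CPM at the high dose and 337, 340 and 334 CPM at the medium dose (-0.29 ± 0.0401, adjusted p = 1.59e-05), and the elongase ELOVL6 had 68.7, 67.3 and 64.3 CPM at the high dose, against 80.0, 79.2 and 79.7 CPM at the medium dose (-0.25, adjusted p = 0.000417). SCD (-0.17), FADS1 (-0.21), the glycerol-3-phosphate acyltransferase GPAM (-0.24) and DGAT2 (-0.24) completed the 6, and DGAT2 had an adjusted p of 0.0731 without medium replicate 1. FASN, fatty acid synthase, did not pass (-0.12, adjusted p = 0.634). Of 10 bile acid genes 2 fell, beside the same 1.1% of all genes. SLC51B, a subunit of the basolateral bile acid exporter, had 6.36, 5.92 and 5.76 CPM at the high dose and 8.64, 7.97 and 8.02 CPM at the medium dose (-0.44 ± 0.0857, adjusted p = 0.0021), and NR1H4, the bile acid receptor FXR that is known to drive SLC51B, fell by 0.24 on the log2 scale (adjusted p = 0.00288). CYP7A1, which sets the rate at which bile acids are made, had 3.38, 3.68 and 3.64 CPM at the high dose, against 4.92, 3.82 and 5.38 CPM at the medium dose and did not pass (-0.40 ± 0.151, adjusted p = 0.219). None of 14 tested fatty acid oxidation genes passed edgeR's test, 3 had an unadjusted p under 0.05, and DESeq2 called none. In a list of this size such a count lies near the background of 2.26% of all genes called.

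**Figure D3:**
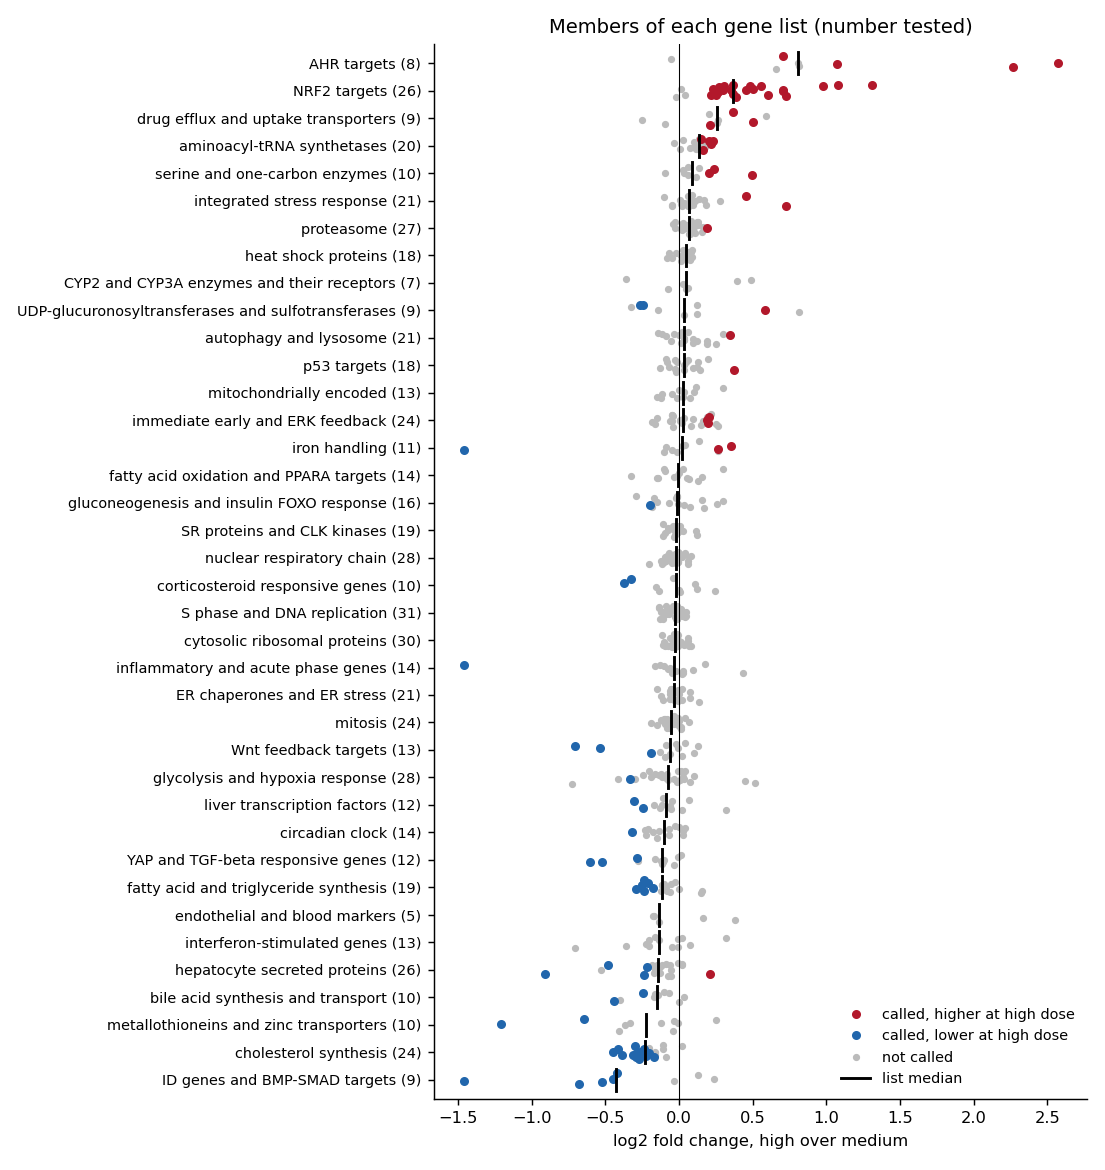
Log2 fold changes of Palmul-tang high over medium dose (horizontal axis) for the tested members of gene lists (rows), for the lists with at least 5 tested members, each point a gene, red or blue where called higher or lower at the high dose, with a bar at the list median. NRF2 targets (22 of 26 higher) lie to the right of zero, cholesterol synthesis genes (16 of 24 lower) to the left, and heat shock genes around it.

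Secreted liver proteins were called lower more often than higher. The lower hepatocyte marker sum given above is no separate observation, because all of its markers but HNF4A belong to this list. Of 26 tested members of the list 4 fell and 1, AMBP, rose (median -0.14), beside 1.1% of all genes called lower and 1.16% called higher. KNG1, kininogen (ENSG00000113889, chr3:186717276-186744410), had 4.40, 4.65 and 5.07 CPM at the high dose and 8.72, 8.38 and 9.20 CPM at the medium dose (-0.91 ± 0.0868, adjusted p = 1.93e-08). ITIH1, an inter-alpha-trypsin inhibitor heavy chain, had 9.38, 7.88 and 9.31 CPM at the high dose and 12.5, 12.3 and 12.1 CPM at the medium dose (-0.48 ± 0.0822, adjusted p = 0.000511). The doses were apart in both genes. Transferrin (TF, -0.24, adjusted p = 0.0134) and vitronectin (VTN, -0.22, 0.00583) also fell, and without medium replicate 1 their adjusted p was 0.14 and 0.0508, which left 2 members lower. TF also missed without high replicate 2 (0.0843), medium replicate 2 (0.0523) or high replicate 3 (0.0505), and VTN without high replicate 1 (0.0519). AMBP (0.21, adjusted p = 0.026) was not called without high replicate 1, high replicate 2, medium replicate 2 or medium replicate 3. ALB, albumin, had 8878, 8818 and 8384 CPM at the high dose, against 10116, 9968 and 9506 CPM at the medium dose and narrowly missed the threshold (-0.18 ± 0.0508, adjusted p = 0.0506). Of 12 liver transcription factors, NR1H4 and CEBPA fell, the second with 66.2, 63.1 and 64.0 CPM at the high dose and 79.6, 81.8 and 77.5 CPM at the medium dose (-0.30 ± 0.0488, adjusted p = 0.00019).

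Among the ID genes and other genes that BMP receptors switch on through SMAD proteins, 5 of 9 tested members fell and none rose. Their median log2 fold change was -0.43, and 1.1% of all genes were called lower. Without high replicate 1, without medium replicate 3 or in DESeq2, 1 member was called higher beside 5 called lower. HAMP, hepcidin, the iron hormone whose transcription BMP6 drives in hepatocytes (ENSG00000105697, chr19:35280716-35285143), had 0.904, 0.620 and 0.968 CPM at the high dose and 2.80, 1.77 and 2.28 CPM at the medium dose (-1.46 ± 0.204, adjusted p = 2.46e-05), and it was scarce at both doses. ID1, an inhibitor of differentiation factors, had 60.9, 54.6 and 61.3 CPM at the high dose, against 83.1, 80.3 and 76.9 CPM at the medium dose (-0.44 ± 0.0699, adjusted p = 0.000197). ID3 had 6.90, 7.09 and 7.33 CPM at the high dose and 13.4, 10.6 and 10.2 CPM at the medium dose (-0.68 ± 0.0967, adjusted p = 3.39e-05), and ID2 fell by 0.42 on the log2 scale (adjusted p = 0.00052). No high-dose library reached the medium-dose range in any of these. The inhibitory SMAD7 fell by 0.52 on the log2 scale (adjusted p = 0.00312), with an adjusted p of 0.0521 without medium replicate 2. SMAD6 (-0.43, adjusted p = 0.0889), SMAD9 (-0.03), BAMBI (0.13) and the ligand BMP4 (0.24) did not pass. ID4, ATOH8 and NOG did not pass the filter on low counts.

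Other genes with large decreases included secreted and surface signalling proteins, which were named for their fold changes. The Wnt antagonist DKK1 had 62.8, 60.6 and 57.9 CPM at the high dose and 92.2, 89.9 and 81.0 CPM at the medium dose (-0.54 ± 0.0599, adjusted p = 4.02e-07). DKK4, another Wnt antagonist and Wnt target, had 2.26, 2.20 and 2.54 CPM at the high dose, against 4.15, 3.88 and 3.32 CPM at the medium dose (-0.70 ± 0.144, adjusted p = 0.00345). TDGF1, the Nodal co-receptor, had 5.55, 5.82 and 6.32 CPM at the high dose and 8.49, 10.1 and 10.5 CPM at the medium dose (-0.73 ± 0.0987, adjusted p = 1.45e-05). The doses of all of these were apart, which was a condition for naming genes by their fold change. Of 13 Wnt feedback genes 3 fell (DKK1, DKK4 and SP5) and none rose (median -0.06), beside 1.1% of all genes called lower. SP5 (adjusted p = 0.0453) missed in 7 of 12 alternatives, with an adjusted p of 0.24 without high replicate 1, 0.222 without medium replicate 2, 0.0998 without high replicate 3 and 0.149 without medium replicate 3. ANKRD1, a YAP-responsive gene, fell by 0.60 on the log2 scale (adjusted p = 0.00079) and the matrix protease MMP11 by 0.48 (adjusted p = 0.00406). Of 10 tested metallothionein and zinc transporter genes 2 were called lower (median -0.23), beside the same 1.1% of all genes. MT1F, a metal-binding protein, had 28.3, 23.4 and 24.8 CPM at the high dose, against 44.1, 37.8 and 38.2 CPM at the medium dose (-0.65 ± 0.129, adjusted p = 0.00708), with an adjusted p of 0.0574 without high replicate 2. The other call, MT1M, was lost when any library but medium replicate 3 was left out, with an adjusted p of up to 0.253. The division of reads among the MT1 genes is uncertain, and MT1X (-0.37) and MT2A (-0.04) did not pass.

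In 14 of 40 lists no tested member passed. They are picked here for having no call, so nothing is read from that count beside the 2.26% of all genes called. Among them were cytosolic ribosomal proteins (30 tested), the nuclear respiratory chain (28), DNA replication (31), mitosis (24), endoplasmic reticulum chaperones (21) and interferon-stimulated genes (13). These 14 lists held 227 distinct genes, of which 16 had an unadjusted p under 0.05 in edgeR (4 higher and 12 lower) and 2 were called by DESeq2. Over all genes the unadjusted share was 11.7%, and DESeq2 called 2.44%. Mitotic genes had a median log2 fold change of -0.05, and without medium replicate 3 there was 1 call among them. CDK1, the mitotic kinase, was at -0.19 (adjusted p = 0.0795) and MCM3, a subunit of the replicative helicase, at -0.14 (0.0937).

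The step from 100 to 500 µg/mL was also set against the step from 20 to 100 µg/mL, both a 5-fold change of dose and with the medium libraries in both. The lower step had 45 called genes (0.28%), 39 higher (0.242%) and 6 lower (0.0373%). The difference between the steps passed for 26 genes (0.162%), 11 with a more positive (0.0684%) and 15 with a more negative upper step (0.0933%), while 792 had an unadjusted p under 0.05. CYP1A1 stood at 16.6, 17.9 and 16.2 CPM in the low, 37.8, 35.9 and 37.4 CPM in the medium and 185, 180 and 170 CPM in the high-dose libraries, so the upper step was larger by 1.13 ± 0.141 (adjusted p = 3.75e-05). AKR1B10 averaged 38.3 CPM at the low, 47.6 CPM at the medium and 118 CPM at the high dose (step difference 1.00 ± 0.106, adjusted p = 2.24e-06). AKR1C1 (1.06 ± 0.118, adjusted p = 5.14e-06), AKR1C2 (1.03 ± 0.113, 3.1e-06) and GCLM (0.59 ± 0.118, 0.0198) likewise had the larger change in the upper step. GCLM missed without high replicate 1 (adjusted p = 0.0543), medium replicate 1, 2 or 3 (0.23, 0.134 and 0.0912) or low replicate 2 (0.0517). HMGCS1 averaged 567 CPM at the low, 567 CPM at the medium and 426 CPM at the high dose (step difference -0.41 ± 0.0776, adjusted p = 0.0099), and missed without medium replicate 2 (0.169) or medium replicate 3 (0.0926) and with the compared groups alone (0.102). The count of 26 was 11, 13 and 12 without medium replicate 1, 2 and 3, and 15 without low replicate 2. Because both steps share the medium libraries, the 11 genes with a more positive upper step are chosen in part for low values there.

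The 15 genes with a more negative upper step are chosen in part for high values in the medium-dose libraries, which both steps share. The peak at that dose, which 14 of the 15 had, is therefore a description of the choice. The 15 included 3 of the 28 genes of the glycolysis and hypoxia list, PDK1, PFKFB3 and PFKFB4. That of PFKFB4 passed in 9 of 15 alternatives. PDK1, a kinase that inhibits pyruvate dehydrogenase, had 45.1, 47.6 and 45.7 CPM at the low, 65.8, 63.3 and 63.8 CPM at the medium and 60.1, 55.4 and 56.5 CPM at the high dose (step difference -0.64 ± 0.0874, adjusted p = 8.38e-05). PFKFB3, which makes the activator of phosphofructokinase, had 7.43, 5.59 and 4.96 CPM at the low, 14.7, 13.1 and 11.4 CPM at the medium and 11.0, 9.26 and 8.81 CPM at the high dose (-1.57 ± 0.313, adjusted p = 0.0484). The glucose transporter SLC2A3, not in that list, had 150, 145 and 136 CPM at the low and 198, 194 and 180 CPM at the medium dose. At the high dose SLC2A3 had 158, 137 and 143 CPM (-0.79 ± 0.127, adjusted p = 0.00266). The PFKFB3 call was lost, with an adjusted p of up to 0.378, without any 1 of the 9 libraries other than high replicate 1 and low replicate 1, and that of SLC2A3 without medium replicate 1 (0.0591). BHLHE40, a hypoxia-responsive repressor (-0.77 ± 0.116, adjusted p = 0.00066), and the lipid droplet protein PLIN2 (-0.51 ± 0.0873, 0.00266; 0.0808 without medium replicate 1) were called in the same direction. Between high and medium dose alone, SLC2A3 fell (-0.38 ± 0.0746, adjusted p = 0.00316), as did BHLHE40 (-0.32 ± 0.0679, 0.00618), whose adjusted p was 0.0588 without high replicate 3 and 0.0687 without medium replicate 3, whereas PDK1 (-0.16, 0.0923), PFKFB3 (-0.42, 0.352) and PLIN2 (-0.10, 0.425) did not pass.

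**Figure D4:**
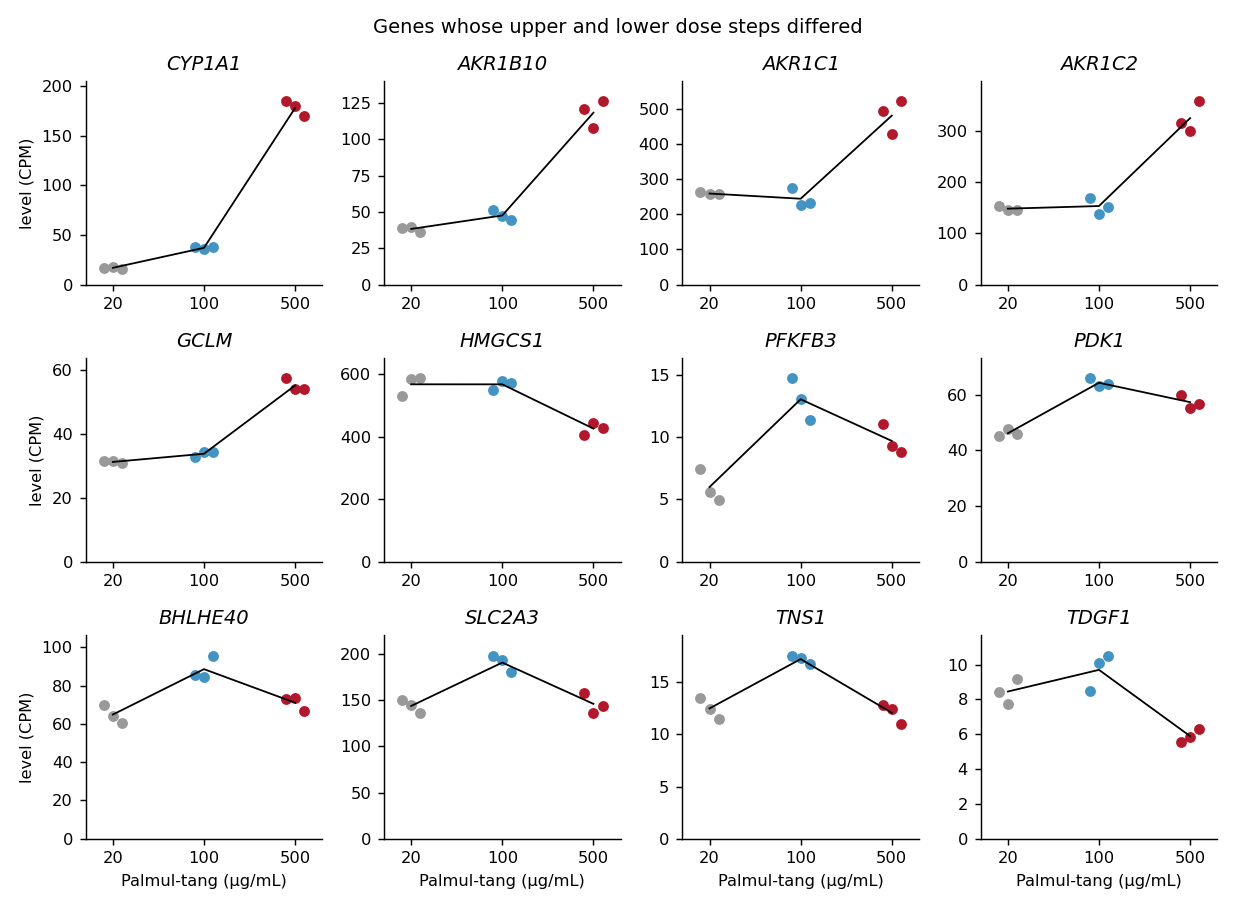
CPM by Palmul-tang dose (horizontal axis, 20, 100 and 500 µg/mL) for genes of the dose-step comparison, with points for the 3 libraries at each dose and lines through the means. CYP1A1 and AKR1B10 climb mainly between 100 and 500 µg/mL, HMGCS1 drops there, and PDK1, PFKFB3 and SLC2A3 are highest at 100 µg/mL.

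Sibjeondaebo-tang, measured at the same doses in libraries that share a column prefix with the Palmul-tang ones, had 1793 called genes (11.1%) for its own step from 100 to 500 µg/mL, 816 higher (5.07%) and 977 lower (6.07%). No library enters both steps. The genes called in both in 1 direction numbered 191, which is 52.5% of the Palmul-tang calls and 10.7% of the Sibjeondaebo-tang calls, and 2 genes, CPLANE1 and SLC22A18, were called in opposite directions. NRF2 targets had 22 of 26 members higher with Palmul-tang and 24 with Sibjeondaebo-tang, with a median of 0.37 in each. The BMP and ID list had 5 lower members with each formula. Cholesterol synthesis had 16 of 24 lower with Palmul-tang (median -0.23) and 7 lower with Sibjeondaebo-tang (median -0.10), and no member of that list passed the test of the difference between the formulas.

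The difference between the steps, Palmul-tang minus Sibjeondaebo-tang, passed for 286 genes (1.78%), with 263 (1.64%) more positive and 23 (0.143%) more negative with Palmul-tang, so that 92.0% of the calls were more positive. The 23 were 0 without Palmul-tang high replicate 2 or without Sibjeondaebo-tang medium replicate 3, 2 without Sibjeondaebo-tang medium replicate 2, 8 without Palmul-tang medium replicate 1 or 2, 12, 10 and 14 without Sibjeondaebo-tang high replicate 1, 2 and 3, and 44 without Sibjeondaebo-tang medium replicate 1. With the GC and length offset the share was 78.7% of 348 genes. The 286 genes had a median log2 fold change of 0.01 in the Palmul-tang step and -0.46 in the Sibjeondaebo-tang step. GOLGA8B, a golgin of a duplicated family whose reads are divided by estimate, showed the largest difference by the naming rule, with 109, 107 and 110 CPM at the high and 108, 113 and 106 CPM at the medium dose of Palmul-tang, and 45.6, 43.2 and 33.4 CPM and 94.3, 101 and 88.6 CPM at the same doses of Sibjeondaebo-tang (1.21 ± 0.0975, adjusted p = 8.75e-09). COL7A1, the anchoring fibril collagen, had 10.9, 9.16 and 8.16 CPM at the high and 10.3, 11.4 and 10.1 CPM at the medium dose of Palmul-tang, and 4.38, 4.61 and 2.51 CPM and 9.04, 8.99 and 8.60 CPM with Sibjeondaebo-tang (1.05 ± 0.175, adjusted p = 0.00056). In both genes the doses overlapped with Palmul-tang, while every high-dose library lay under every medium-dose library with Sibjeondaebo-tang. ABCC2, described above for Palmul-tang, had 322, 323 and 296 CPM at the high and 332, 338 and 318 CPM at the medium dose of Sibjeondaebo-tang, so its step was 0.36 with Palmul-tang and -0.07 with Sibjeondaebo-tang (difference 0.43 ± 0.0588, adjusted p = 2.66e-05). ABCC3 had a step of 0.50 with Palmul-tang and 0.20 with Sibjeondaebo-tang (difference 0.30 ± 0.0734, adjusted p = 0.0234), and CYP1A1 one of 2.26 with Palmul-tang and 1.83 with Sibjeondaebo-tang (difference 0.44 ± 0.106, adjusted p = 0.0287). The differences of GOLGA8B, COL7A1 and ABCC2 passed in all 18 alternatives, that of ABCC3 in 12 and that of CYP1A1 in 7, with an adjusted p of up to 0.0855 for ABCC3 and CYP1A1 without Palmul-tang medium replicate 2. The count of 286 was 148 without Palmul-tang high replicate 2, 185 without Palmul-tang medium replicate 1, 167 without Sibjeondaebo-tang medium replicate 2 and 187 without Sibjeondaebo-tang high replicate 3.

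**Figure D5:**
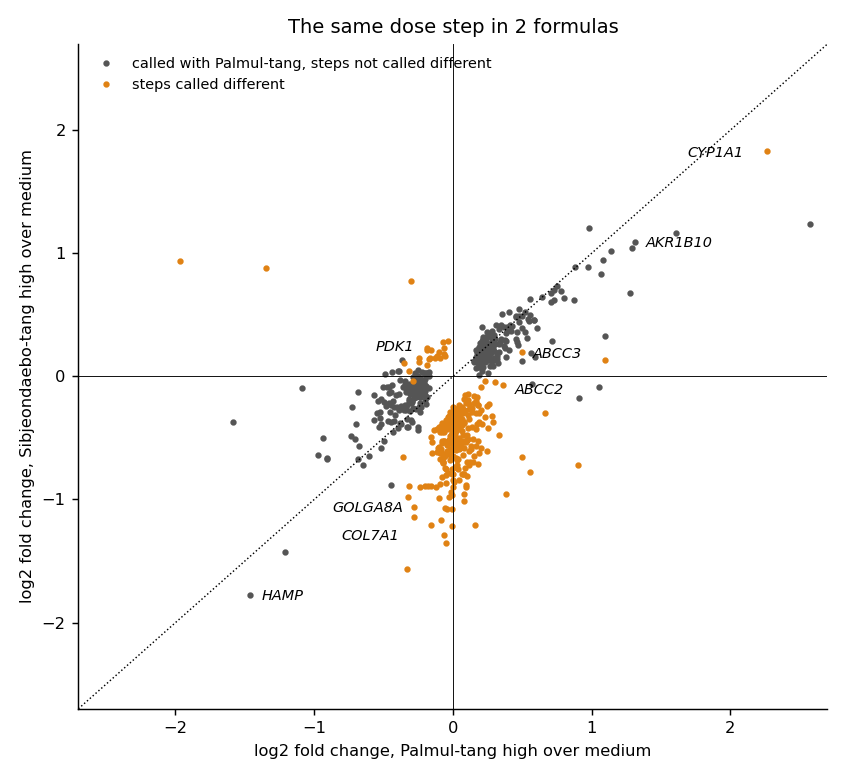
Log2 fold change of high over medium dose with Palmul-tang against that with Sibjeondaebo-tang with the 286 genes whose steps differed in orange and the other genes called with Palmul-tang in grey. The orange genes have a median of 0.01 on the Palmul-tang axis and -0.46 on the Sibjeondaebo-tang axis, and the dotted line marks equal steps.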

How the data were processed

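RNA was measured in HepG2 cells by stranded paired-end sequencing of mRNA libraries, per the labels' protocols. Expected counts were deposited by the authors as 1 table with 60675 Ensembl gene rows, in which 240 columns match no sample used here and were left unread. Per the submitters' processing notes, the authors used RSEM 1.3.3, STAR 2.7.3a, Trim Galore 0.6.5 and FastQC 0.11.9, and the builds named are hg38 and GRCh38. The annotation release is a detail not given in the sources used here. Because RSEM divides reads among similar transcripts, 8.56% of the deposited expected counts were not whole (to within 1e-06), and values of near-identical genes are uncertain. Samples were grouped by formula and dose from their titles and descriptions.

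The expected counts were rounded. Genes were kept by filterByExpr (minimum count 10, minimum total 15), which left 16084, and TMM factors ran from 0.919 to 1.08. One quasi-likelihood model was fitted with edgeR 4.0.16 (R 4.3.3, robust) to 27 libraries of 10 groups, leaving out Sagunja-tang, which had 1 library a dose. The biological coefficient of variation was 5.47%, with 17 residual degrees of freedom. Each contrast was tested two-sided over all genes with Benjamini-Hochberg adjustment and a threshold of 0.05. Standard errors were derived from each log2 fold change and its F statistic. CPM values use the TMM factors, gene symbols were looked up by Ensembl identifier (56558 rows matched), and gene positions are from GENCODE 29 on GRCh38. The 6 libraries held 21570416 to 32714295 counts, so precision for genes under about 1 CPM is limited by counting.

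The compared groups and the 40 gene lists (689 symbols) were chosen with earlier results of these data known. Named genes are up to 12 each way with the largest fold change among protein-coding genes that were called, had a mean log2 CPM of at least 2 and did not overlap between the doses, up to 4 per list with the smallest adjusted p, 22 genes always given, and up to 6 each way for the formula and the dose-step contrasts. Non-overlap of the genes named by fold change is therefore no separate observation. Other members of the lists, CYP1A2, FTL and MTHFD2 among them, were named after their values were seen. Lists are described by counts and medians, without a set test. Squared differences within replicate pairs were 5.23 to 11.9 times what counting alone gives, so no pair looked like a repeated deposit of 1 library. Alternatives were DESeq2 1.42.0, median-ratio factors, no filter, the compared groups alone, a replicate block, a GC and length offset, and each replicate left out. The scripts were tested on simulated data. The remaining doses of Samul-tang and Sagunja-tang and the vehicle entered no comparison here. Some genes that the naming rule takes are not reported here.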

Additional observations from a re-analysis of the deposited data

Results flagged for a closer look

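These genes were picked out because their response to the step from 100 to 500 µg/mL differed between Palmul-tang and Sibjeondaebo-tang in edgeR's test of that difference (adjusted p under 0.05); values are log2 differences, Palmul-tang step minus Sibjeondaebo-tang step. In the xenobiotic response, CYP1A1 had 0.44, and the conjugate pumps ABCC2 and ABCC3 had 0.43 and 0.30. ACADVL, a fatty acid oxidation dehydrogenase, had 0.31. A more negative Palmul-tang step was called for PLIN2 at -0.30, PFKFB4 at -0.40, PDK1 at -0.31, BHLHE40 at -0.36 and the creatine transporter SLC6A8 at -0.47. APOL1 had -0.41, C8orf82 -0.37 and TMEM198 -0.36. All of these negative differences missed the threshold without Palmul-tang high replicate 2 or without Sibjeondaebo-tang medium replicate 3, and those of BHLHE40, PFKFB4 and C8orf82 passed in no more than 6 of 18 alternatives. CYP1A1 passed in 7, ABCC3 in 12, ACADVL in 15 and ABCC2 in all 18.

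The largest positive differences by the naming rule were in GOLGA8B (1.21), TPM2 (1.10), GOLGA8A (1.08), COL7A1 (1.05), KIFC2 (1.04) and RGL3 (1.03), which passed in all 18 alternatives. GOLGA8A had 104, 114 and 86.4 CPM at the high and 103, 113 and 108 CPM at the medium dose of Palmul-tang, and 43.2, 43.8 and 34.4 CPM at the high and 89.7, 90.2 and 91.9 CPM at the medium dose of Sibjeondaebo-tang. Reads of GOLGA8A and GOLGA8B are divided between near-identical copies by estimate.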

How the results depend on the processing

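Of 364 genes called for Palmul-tang high against medium, 326 were also among the 392 that DESeq2 called and 362 among the 365 with median-ratio factors. Counts were 511 with no filter, 275 with the compared groups alone, 472 with the GC and length offset and 216 to 278 with 1 replicate left out. For the difference between formulas (286, of which 23 lower), no filter gave 554 (107 lower), a replicate block 75 lower and leaving out 1 replicate 148 to 273. For the difference between dose steps (26), DESeq2 gave 40, no filter 140 and leaving out 1 replicate 11 to 21. The difference in mitochondrial share was -0.677 percentage points without high replicate 2, -0.320 without medium replicate 1 and -0.319 without medium replicate 2, against 0.00681 with all libraries, and ran from -0.677 to 0.660. The cause of these moves was not tested, beyond the fewer libraries or more genes that an alternative holds by construction. Of 78 named called genes 48 passed in each alternative that gave them a value (12, and 11 for CYP1A2), 30 missed in at least 1, and 22 of 104 named uncalled genes passed in at least 1, with no reversal among them. Among the lists described, the lower secreted liver proteins (4) were 8 with DESeq2 and with no filter, the higher aminoacyl-tRNA synthetases (5) ran from 1 with the compared groups alone to 9 with the GC and length offset, the higher transporters (3) were 5 with that offset, the lower metallothionein and zinc genes (2) were 4 with no filter and 1 with a replicate block, and the autophagy and lysosome gene (1) was joined to make 3 or 4 with no filter, a replicate block or the offset. ALB passed in 6 of the 12.

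The titles and column names share replicate numbers, and nothing says that a number marks a shared culture or day. Deviations of same-numbered libraries from their dose means had correlations of 0.27, 0.14 and -0.01 over 9609 genes, so the numbers were not taken to pair the libraries. With a replicate block the counts were 484 for high against medium, 408 for the formulas and 51 for the dose steps, and between high and medium dose PFKFB3 (0.0122), PDK1 (0.0464) and ACADVL (0.0227) then had an adjusted p under the threshold. ACADVL also passed with the GC and length offset (0.0166), CREB3L3 with no filter (0.0308) and PFKFB3 with no filter (0.00158). CYP1A2 and MT1M, under 1 CPM in all 6 libraries, and HAMP, under 1 CPM at the high dose, rest on few counts.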
